A study of Homo sapiens with 4 samples.

Results

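The 50 precursor microRNA loci described here are the genes that the deposited tables type as Precursor_miRNA and that had a value above 0 in at least 3 of the 4 libraries. They were chosen by these measured values, so that they are detected is no finding. They are 50 of 713 precursor rows (7.01%) among 40205 listed genes. The other precursor rows were above 0 in 2 libraries (27 rows), in 1 library (62 rows) or in none (574 rows). At the edge of the rule, the 23 loci above 0 in exactly 3 libraries had 3 to 25 reads over the 4 libraries with a median of 6, and the 27 rows above 0 in exactly 2 libraries had 2 to 11 reads with a median of 3.

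The study silenced circZFR, a circular RNA made of exons of ZFR, with an siRNA and measured the transcriptome of lung adenocarcinoma cells by RNA-seq. RNA was taken 24 h after transfection from 2 samples given a negative control siRNA (NC 1 and NC 2) and 2 given circZFR siRNA (si-circZFR 1 and si-circZFR 2), and all 4 were sequenced on the Ion Proton. The labels name the H1299 line, whereas the series design and the article name A549. All samples come from 1 cell line, and nothing states whether replicates were separate cultures, so p-values measure the spread between these samples, which may be technical. The control siRNA is not described further, and a single siRNA against the circle was used.

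Levels are given as RPKM (reads per kilobase of gene, relative to the mapped reads of the library), scaled between libraries by trimmed means. A log2FC is the fitted si-circZFR minus NC difference of log2(scaled RPKM + 1), and FDR is its p from limma adjusted over all genes tested. In these bulk samples, fewer cells that make an RNA and less of it per cell cannot be told apart. Of the markers used to check the cells, CDKN2A, which A549 has lost, was at 0 in all 4 libraries, and AKR1B10, an aldo-keto reductase, reached 1296 to 1677 scaled RPKM. The values printed here do not settle which of the 2 lines was used. The epithelial keratins KRT8 and KRT18 lay between 735 and 1786 scaled RPKM, the leukocyte genes PTPRC and CD3E were at 0, the endothelial PECAM1 had 0 to 2 reads and the fibroblast collagen COL1A1 0.612 to 1.89 scaled RPKM. ZFR itself, the gene of origin of the circle, had 1437 and 1740 reads in the NC libraries against 284 and 267 in the si-circZFR libraries (log2FC of -2.33). Reads on a gene here do not separate its circle from its linear mRNA, so this row does not measure the target of the siRNA by itself.

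MicroRNAs are made in steps. A long primary transcript, often an intron or an exon of another gene, is cut in the nucleus by DROSHA and DGCR8 into a hairpin precursor, which XPO5 exports and DICER1 trims to the mature microRNA that guides Argonaute proteins. The seed near the 5′ end of the mature strand pairs with target mRNAs. A read of an ordinary RNA library that falls on a hairpin can come from the primary transcript, from an unspliced or retained stretch of the host gene, or from an mRNA that carries the same bases. No library of small RNAs is among the 4, so nothing here is a level of mature microRNA.

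The mature sequences of the loci on which the account below turns are given from RefSeq (GRCh38.p14), with the seed, bases 2 to 8, in capitals. MIR4730 is the locus that passed the test, MIR5047, MIR27B, MIR103A2 and MIR590 are the other best covered hairpins of introns, MIR3189 and MIR198 are hairpins whose groups were apart, and MIR34A, MIRLET7D and MIR196A1 belong to microRNA families with well-known roles in cancer and development.
hsa-miR-4730: cUGGCGGAgcccauuccaugcca
hsa-miR-5047: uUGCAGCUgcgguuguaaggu
hsa-miR-27b-3p: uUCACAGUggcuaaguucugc
hsa-miR-103a-3p: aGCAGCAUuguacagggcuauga
hsa-miR-590-5p: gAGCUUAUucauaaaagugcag
hsa-miR-3189-3p: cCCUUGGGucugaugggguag
hsa-miR-34a-5p: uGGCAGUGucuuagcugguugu
hsa-let-7d-5p: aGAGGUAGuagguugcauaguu
hsa-miR-196a-5p: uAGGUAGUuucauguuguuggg
hsa-miR-198: gGUCCAGAggggagauagguuc

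The next set is shown because the hairpins repeat bases of the mRNA of a translation factor, a ribosomal protein or prothymosin alpha.
hsa-miR-3654: gACUGGACaagcugaggaa
hsa-miR-4426: gAAGAUGGacguacuuu
hsa-miR-1244: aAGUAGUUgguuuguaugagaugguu

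Among the 46 loci with a mature entry, the only seed that loci shared was that of miR-1244, which MIR1244-1 and MIR1244-2 both encode. Because the reads cover the hairpin and not the mature strand, the whole hairpins of MIR4730 and MIR27B are printed too, with the mature strands in capitals.
MIR4730 hairpin: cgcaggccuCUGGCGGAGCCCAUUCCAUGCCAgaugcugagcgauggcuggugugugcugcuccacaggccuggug
MIR27B hairpin: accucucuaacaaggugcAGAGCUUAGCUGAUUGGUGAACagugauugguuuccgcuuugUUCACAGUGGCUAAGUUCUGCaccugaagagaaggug

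Few reads lay behind most of these loci. Library totals ranged from 11040050 to 12816868 reads, of which 98.4% to 98.6% lay on listed genes, and the 50 loci together took 3316 reads, 0.00704% of all reads. The median locus had 12.5 reads over the 4 libraries. MIR3654 had 1120 reads, MIR5047 815, MIR1244-2 336 and MIR1244-1 119, and the first 3 held 68.5% of all precursor reads. A further 24 loci had 10 to 99 reads and 22 had fewer than 10. A hairpin of 53 to 149 bases is so short that 1 read is worth 0.524 to 1.71 RPKM, so RPKM values that look like expression can rest on single reads. The plot of reads per locus and library shows this range.

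**Figure D1:**
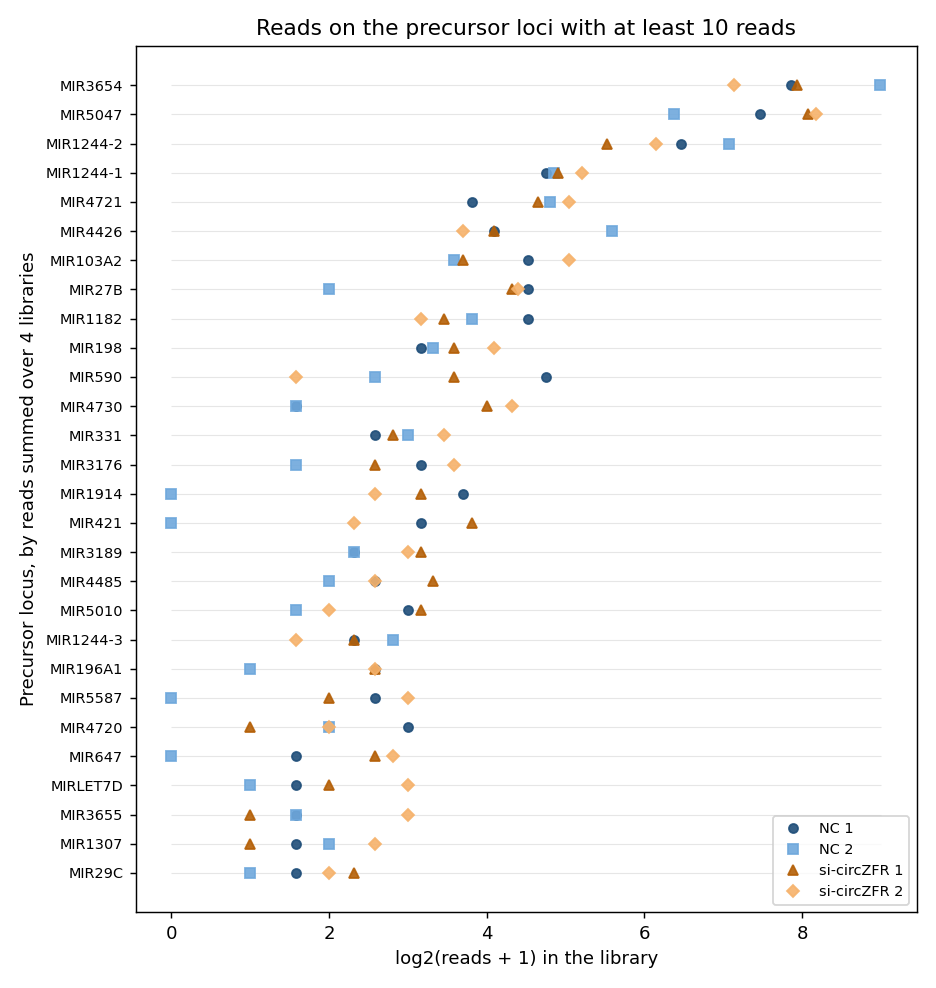
Reads in each of the 4 libraries for the 28 precursor loci with at least 10 reads, as log2(reads + 1), with the loci sorted by total. MIR3654 and MIR5047 stand at the top, and NC 2 (light blue squares) is at 0 for MIR1914, MIR421, MIR5587 and MIR647.

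NC 2, the deepest library, detected the fewest loci. It had 47 precursor rows above 0, against 73 in NC 1, 87 in si-circZFR 1 and 86 in si-circZFR 2. Of the 50 loci, 12 were at 0 in NC 2, 3 in NC 1, 4 in si-circZFR 1 and 4 in si-circZFR 2. A count of 0 allows a true level of up to 3 reads in that library. In spite of its zeros NC 2 had 925 precursor reads, against 763 in NC 1 and 817 and 811 after silencing. Relative to depth that is 72.2 reads per 1000000 in NC 2, 63.8 in NC 1 and 72.5 and 73.5 in the si-circZFR libraries. Of the 925 reads, 720 lay on 5 loci that repeat bases of the EEF1G, RPS27A or PTMA mRNA, described below. None of these 5 was at 0 in NC 2. The loci at 0 there had 3 to 25 reads over the 4 libraries, so kind of locus and number of reads cannot be told apart.

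By the GENCODE 44 annotation of GRCh38, 20 hairpins lay within a protein-coding gene but outside the exons of its main transcript, 13 overlapped an exon of such a transcript, and 9 lay in a non-coding gene. Of the others, 2 lay in exons of pseudogenes, 1 had only a gene on the opposite strand, 3 overlapped no other gene and 2 had no position (MIR3687 and MIR4482-1). The 20 of the first class are called intronic below. Of them 17 lay in an intron of the main transcript and 3 (MIR196A1, MIR573 and MIR663B) outside that transcript. All 80 bases of MIR1914 were also found in an annotated transcript of UCKL1, and 146 of the 149 bases of MIR1307 in one of ATP5MK. MIR5047, MIR4512 and MIR548N were placed by the mature strand alone, so the extent of their hairpins was not checked. The hairpins matched to RefSeq, 41 of 50, had a median length of 85 bases and 25.0% to 76.6% GC. Of these, 32 had 1 copy in the genome at 90% identity or more and 9 had at least 2. Whether the authors counted reads by strand, and how they placed reads with several matches, is not given in the sources used here.

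The locus with the most reads repeats the sequence of an abundant mRNA. MIR3654 (chr7:133034860-133034915, minus strand, 56 bases) sits in a processed pseudogene within an intron of CHCHD3, and all 56 bases are also in the mRNA of EEF1G, a subunit of translation elongation factor 1. For MIR3654, NC 1 held 232 reads, NC 2 505, si-circZFR 1 243 and si-circZFR 2 140. NC 2 was the highest, and the groups overlapped because NC 1 lay below si-circZFR 1. On the RPKM scale MIR3654 stood at 353, 779, 379 and 204 and EEF1G at 319, 468, 253 and 219 in the same order of libraries. Both were highest in NC 2 and lowest in si-circZFR 2. The difference for MIR3654 did not pass the test (log2FC of -0.91 ± 0.48 SE, FDR of 0.318).

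MIR4426 (chr1:192716328-192716390, plus strand) lies in the pseudogene RPS27AP5, and 62 of its 63 bases are in the mRNA of RPS27A, which encodes a ubiquitin fused to a ribosomal protein. It had 16 and 47 reads in the NC libraries and 16 and 12 after silencing. RPS27A stood at 130 and 171 scaled RPKM in the NC libraries and at 56.4 and 73.7 in the si-circZFR libraries, so its groups were apart while those of MIR4426 met at 16 reads. The log2FC values were -0.98 for MIR4426, -0.99 for RPS27AP5 and -1.20 for RPS27A. None passed by limma, while RPS27A passed by limma-voom on recovered reads (log2FC of -1.20, FDR of 0.0232).

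The MIR1244 loci carry an 85-base hairpin identical to part of PTMA, the mRNA of prothymosin alpha, an acidic chromatin protein. MIR1244-1 (chr2:231713314-231713398, plus strand) lies in the 3′UTR of PTMA itself, MIR1244-2 (chr5:118974586-118974670, plus strand) opposite DTWD2, and MIR1244-3 (chr12:9239467-9239551, minus strand) in an intron of the pseudogene A2MP1. In the order of libraries NC 1, NC 2, si-circZFR 1, si-circZFR 2, there were 87, 134, 45 and 70 reads on MIR1244-2, 26, 28, 29 and 36 on MIR1244-1, and 4, 6, 4 and 2 on MIR1244-3. Both si-circZFR libraries thus lay below both NC libraries for MIR1244-2 and above them for MIR1244-1, although the 3 hairpins cannot be told apart by sequence. Their log2FC values were -0.95 ± 0.29 (SE, FDR of 0.158), 0.23 and -0.63. PTMA stood at 163, 236, 182 and 175 scaled RPKM, again highest in NC 2. MIR4485 is of the same kind, since 53 of its 57 bases are in the mitochondrial 16S ribosomal RNA (RNR2). It had 5, 3, 9 and 5 reads beside 540195 to 831759 reads of RNR2.

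**Figure D2:**
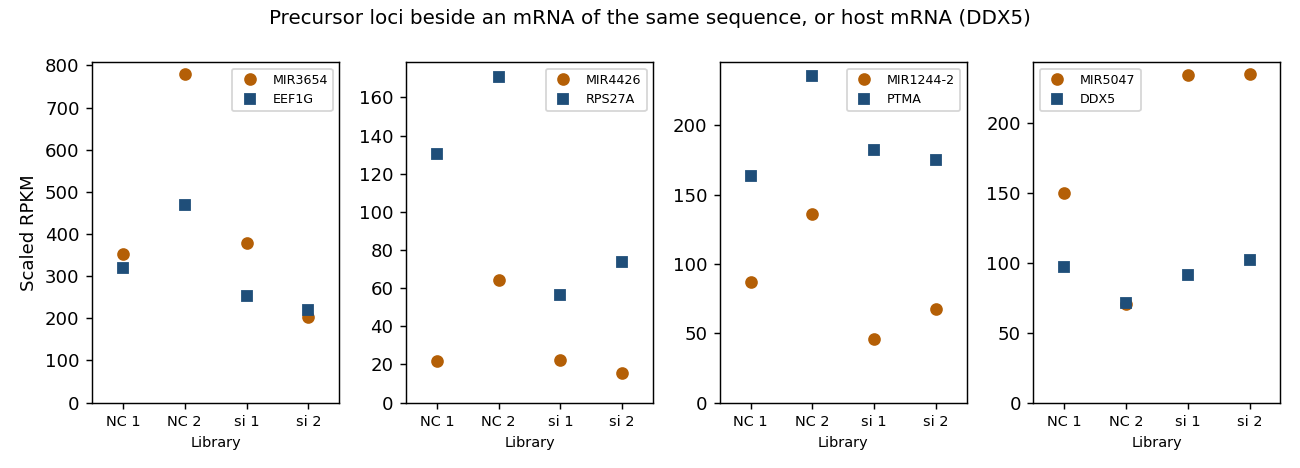
Scaled RPKM (y axis, from 0) in the 4 libraries (x axis) for MIR3654, MIR4426 and MIR1244-2, each beside the mRNA that holds all or all but 1 of its bases, and for MIR5047 beside its host DDX5. The first 3 loci and their mRNAs are highest in NC 2, and MIR5047 and DDX5 are lowest there.

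Hairpins in introns had another order of libraries. MIR5047, the best covered of them, lies in an intron of DDX5, the gene of an RNA helicase that is itself part of the microprocessor (mature strand at chr17:64501230-64501250, minus strand). NC 1 held 176 of its reads, NC 2 82, si-circZFR 1 269 and si-circZFR 2 288. The groups did not overlap, and NC 2 was the low library. The scaled RPKM was 110 ± 56.0 (SD, n = 2) against 235 ± 0.394 (SD, n = 2). The log2FC was 1.18 ± 0.36 (SE, FDR of 0.159), and 0.64 without NC 2. Per length, MIR5047 stood at 155% and 99.0% of DDX5 in the NC libraries and at 258% and 230% after silencing, while DDX5 itself had a log2FC of 0.21. MIR3064, 456 bases away in the same gene, showed the same order with 30, 15, 39 and 42 reads and a log2FC of 0.88.

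MIR4730 was the only locus of the 50 that passed the test. It lies in an intron of ENDOV (chr17:80419418-80419493, plus strand), which encodes an endonuclease that cuts RNA at inosine. It had 2 reads in each NC library, 15 in si-circZFR 1 and 19 in si-circZFR 2. The scaled RPKM rose from 2.26 ± 0.0202 to 18.8 ± 2.26 (SD, n = 2 each), with a log2FC of 2.60 ± 0.17 (SE) and an FDR of 0.0379 by limma. Counted as reads, the rate in the si-circZFR libraries was 9.44 times that in the NC libraries, with an exact 95% interval of 3.37 to 36.6 that covers counting error only. The call rested on 38 reads and was lost with limma-voom on recovered reads (log2FC of 2.78, FDR of 0.0721), and the log2FC without NC 2 was 2.62. ENDOV stood at 6.38, 6.61, 8.72 and 10.5 scaled RPKM (log2FC of 0.50, FDR of 0.18), so the hairpin went from 35.2% and 34.4% of its host in the NC libraries to 197% and 195% of it.

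MIR27B encodes a microRNA of the conserved miR-23b cluster and lies in an intron of AOPEP, listed as C9orf3 (chr9:95085445-95085541, plus strand). It had 22 reads in NC 1, 3 in NC 2, 19 in si-circZFR 1 and 20 in si-circZFR 2. NC 1 lay above both si-circZFR libraries, and NC 2 alone was low, with a rate 0.127 times that of NC 1 (exact 95% interval 0.0244 to 0.424). The log2FC was 1.06 ± 0.74 (SE, FDR of 0.438) and -0.18 without NC 2. Its host stood at 28.9 and 25.9 scaled RPKM in the NC libraries and 42.0 and 40.0 in the si-circZFR libraries. Of its cluster neighbors, MIR23B had 8, 4, 2 and 7 reads and MIR24-1 was listed at 0 in all libraries.

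MIR103A2, a locus of miR-103, which acts in metabolic control, lies in an intron of PANK2 (chr20:3917494-3917571, plus strand), a pantothenate kinase gene. Its reads, NC libraries first, were 22, 11, 12 and 32, so the replicates of each group differed by more than the groups did. The log2FC was 0.30 ± 0.48 (SE). Per length it stood at 185% of PANK2 over the 4 libraries. MIR590, in an intron of EIF4H (chr7:74191198-74191294, plus strand), had 26, 5, 11 and 2 reads and a log2FC of -1.08 ± 0.87 (SE). Here too the spread within each group was as wide as the difference.

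MIR3189 is an intronic hairpin of GDF15, a stress-induced cytokine of the TGF-β family (chr19:18386562-18386634, plus strand). It had 4 reads in each NC library and 8 and 7 in the si-circZFR libraries, with a log2FC of 0.76 ± 0.17 (SE, FDR of 0.102). GDF15 itself stood at 122 and 109 scaled RPKM in the NC libraries and at 64.9 and 69.8 in the others (log2FC of -0.76, FDR of 0.11). The exact interval of the read ratio of MIR3189, 0.829 to 5.67, included 1, and neither gene passed the test.

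The host genes UCKL1, a uridine kinase gene, and CAPN15, a calpain protease gene, each hold a pair of the loci. In UCKL1, MIR1914 had 12, 0, 8 and 5 reads and MIR647, 1166 bases away, 2, 0, 5 and 6, in the same order. In CAPN15, MIR3176 had 8, 2, 5 and 11 reads and MIR5587, 7961 bases away, 5, 0, 3 and 7. NC 2 was the lowest library for each of them. MIR196A1, of the HOXB7 region and of a family that targets HOX mRNAs, had 5, 1, 5 and 5 reads. The 9 remaining loci of this class, with 3 to 11 reads each, were MIR1307 (ATP5MK), MIR573 (DHX15), MIR663B (ANKRD30BL), MIR4324 (SLC6A16), MIR4512 (SNAPC5), MIR635 (WIPI1), MIR3161 (PTPRJ), MIR548N (DPY19L1) and MIR4312 (ANP32A).

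Of the hairpins in exons, MIR4721, MIR198 and MIR1182 had the most reads after MIR1244-1. MIR4721 overlaps a coding exon of TUFM, the mitochondrial elongation factor (chr16:28843919-28844007, minus strand), and had 13, 27, 24 and 32 reads with a log2FC of 0.51 ± 0.34 (SE). It followed the order of TUFM itself, which stood at 177, 263, 226 and 299 scaled RPKM. MIR198 lies in the 3′UTR of FSTL1, a follistatin-like secreted protein gene (chr3:120395668-120395729, minus strand), and had 8, 9, 11 and 16 reads. Its groups did not overlap, but the log2FC of 0.58 ± 0.20 (SE) had an FDR of 0.18. MIR1182 lies in an exon of FAM89A (chr1:231019828-231019924, minus strand) and had 22 reads in NC 1, 13 in NC 2, 10 in si-circZFR 1 and 8 in si-circZFR 2. The si-circZFR libraries were the lowest (log2FC of -0.86 ± 0.27 SE, FDR of 0.166), as they were for FAM89A (9.11, 8.65, 6.58 and 5.23 scaled RPKM).

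The other exonic loci were MIR5010 (ATP6V0A1) with 7, 2, 8 and 3 reads, MIR4720 with 7, 3, 1 and 3, MIR3655 (IK) with 2, 2, 1 and 7 and MIR1287 (PYROXD2) with 4, 0, 2 and 3. MIR621 (SLC25A15), MIR630 (ARIH1), MIR378I (TNFRSF13C), MIR4687 (STIM1) and MIR3658 (UCK2) had 3 to 8 reads in all.

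Hairpins in the other non-coding host genes had few reads. MIR421, in the non-coding gene FTX of the X-inactivation region, had 8, 0, 13 and 4 reads. MIRLET7D, of the let-7 family that restrains growth genes, had 2, 1, 3 and 7 reads and MIR34A, of a family that restrains the cell cycle, 1, 0, 2 and 6. In both the si-circZFR libraries lay above the NC libraries, with log2FC values of 1.18 ± 0.36 (SE, FDR of 0.155) and 1.50 ± 0.44 (SE, FDR of 0.149). MIR34A stayed below 1 RPKM in both NC libraries. It entered the test (1 RPKM in at least 2 libraries) only through the si-circZFR libraries. MIR29C, a repressor of collagen mRNAs, had 2, 1, 4 and 3 reads. MIR663A, MIR125B2, MIR3179-1 and MIR940 had 4 to 8 reads each. Outside other genes, MIR331 and MIR3685, 1478 bases apart, had 5, 7, 6 and 10 and 1, 2, 1 and 3 reads. MIR3687 and MIR4482-1 had 3 and 5 reads in all.

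Set against their hosts per length, exonic hairpins stood at a median of 15.7% of the host mRNA (13 loci, 6.96% to 1460%) and intronic ones at a median of 35.1% (20 loci, 1.15% to 191%). The extremes were MIR378I, with 6 reads beside 5 of TNFRSF13C, and MIR5047. The loci had been chosen by detection, and 1 read is worth 0.524 to 1.71 RPKM. Low shares of a weakly expressed host could therefore not appear, and whether the 2 medians differ was not tested. Of 11 exonic loci tested together with their host, 7 had a log2FC of the sign of the host, and of 20 intronic ones 9 did. The plot of hairpins against hosts gives these levels locus by locus.

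**Figure D3:**
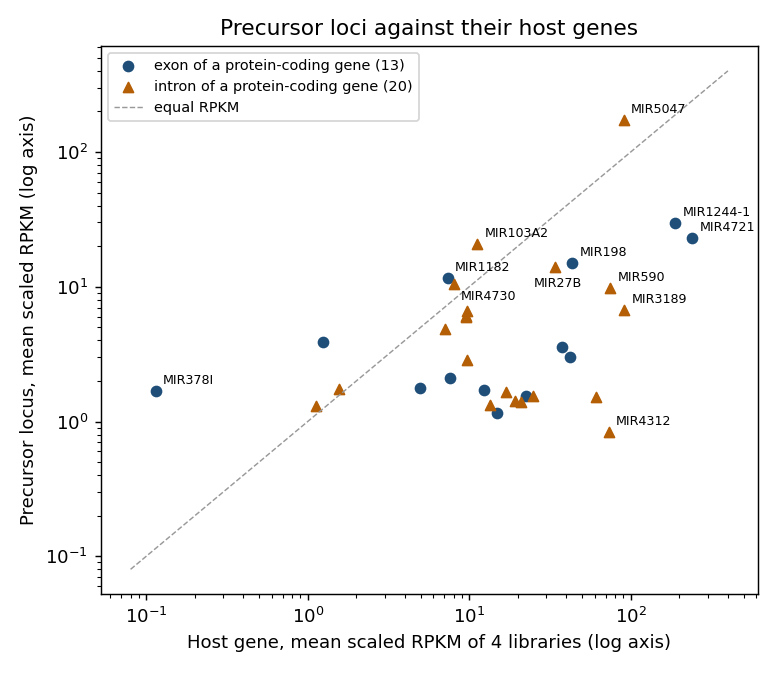
Mean scaled RPKM over the 4 libraries of each precursor locus (y axis, log) against its protein-coding host gene (x axis, log), for 13 exonic (circles) and 20 intronic (triangles) loci. Most points lie below the dashed line of equal RPKM, and MIR5047, MIR103A2, MIR4730, MIR1182 and MIR378I are among those above it.

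Summed by class, the precursor reads of NC 2 departed from the other libraries in opposite directions. The 5 loci that copy the mRNA of EEF1G, RPS27A or PTMA took 30.5 reads per 1000000 in NC 1, 56.2 in NC 2, and 29.9 and 23.6 after silencing. MIR3179-1, whose 84 bases are all in a transcript of NOMO3 too, was kept with the loci in non-coding genes. The 20 intronic loci took 25.2, 9.60, 33.2 and 37.5, and 10.4, 3.20, 9.32 and 11.4 with MIR5047 left out. The copies were thus highest and the introns lowest in NC 2, while NC 1 lay just above the si-circZFR libraries for the copies, below them for the introns, and between them for the introns without MIR5047. For 16 of the 20 intronic loci the read rate was lower in NC 2 than in NC 1. The 12 other exonic loci took 5.69, 4.84, 5.50 and 7.88 reads per 1000000 and the 8 other loci in non-coding genes 1.42, 0.546, 2.31 and 2.54. What sets NC 2 apart was not tested.

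**Figure D4:**
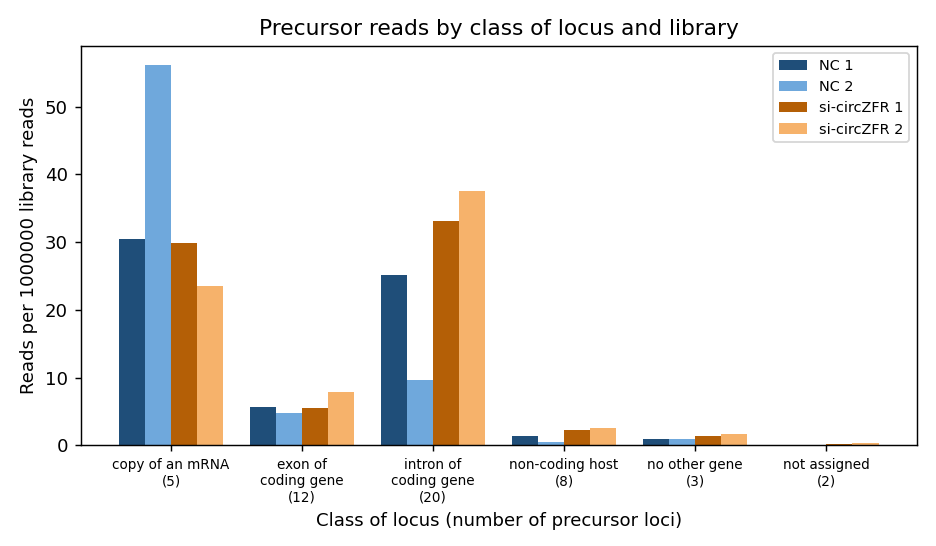
Reads per 1000000 library reads (y axis) summed over the precursor loci of each class (x axis, number of loci in parentheses), with 1 bar for each library. NC 2 is the tallest bar for the 5 copies of an mRNA (56.2) and the shortest for the 20 loci classed as in introns of protein-coding genes (9.60).

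Across the 50 loci, 48 passed the filter of 1 RPKM in at least 2 libraries and were tested (MIR630 and MIR940 were not). A locus can pass that filter through the group in which it is high. MIR34A, MIR3179-1 and MIR125B2 did so, with neither NC library at 1 RPKM as deposited, so their direction is no support. Of the loci tested, 29 had fewer than 20 reads. With limma on log2(scaled RPKM + 1), MIR4730 was the single locus with an FDR below 0.05 and an absolute log2FC above 1, 2.08% of the loci tested. The same rule called 8 of 13885 genes (0.0576%), 4 of them higher (0.0288%). Unadjusted, 10 loci (20.8%) had p under 0.05, beside 21.7% of all genes tested. Of these, 8 were higher, MIR4730, MIR5047, MIR198, MIR3189, MIR647, MIRLET7D, MIR29C and MIR34A (16.7% of loci, 10.1% of genes), and 2 were lower, MIR1244-2 and MIR1182 (4.17% of loci, 11.5% of genes).

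Both si-circZFR libraries lay above both NC libraries for 12 loci (25.0%, beside 28.1% of genes) and below them for 3 loci (6.25%, also beside 28.1% of genes). The count above is thus near its background, and MIR621, MIR4482-1, MIR3179-1 and MIR1244-1 joined the 8 loci named above. The loci below were MIR1244-2, MIR1182 and MIR4720. On reads, with genes of at least 10 reads, limma-voom called none of 28 loci and 390 of 18019 genes (2.16%). By limma-voom 5 of the 28 had an unadjusted p under 0.05, with no share over all genes worked out to set beside it.

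The fitted log2FC was above 0 for 35 of 48 loci (72.9%, beside 50.7% of genes), with a median of 0.36 against 0.01 over all genes. Over the loci as a whole, this lean was not seen without NC 2. Without that library 22 of 45 loci were above 0 and 23 below, and the median was -0.01. All 11 tested loci that were at 0 in NC 2 had a log2FC above 0, and by the rule such a locus had reads in each of the other libraries. Of the 27 loci above 0 in all libraries, 20 had a log2FC above 0 and 7 below. Their median was 0.30, and 0.23 without NC 2, so by the median most of the lean remained among them. By sign it weakened, since MIR103A2, MIR27B, MIR3176, MIR5010 and MIR196A1 of these loci fell below 0 and none moved the other way. In all, 12 loci changed sign without NC 2, MIR27B, MIR1914, MIR421, MIR3176, MIR5587, MIR196A1 and MIR103A2 among them, while MIR4730, MIR3189, MIR198, MIR1182 and MIR4721 lay as far from 0 or farther.

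**Figure D5:**
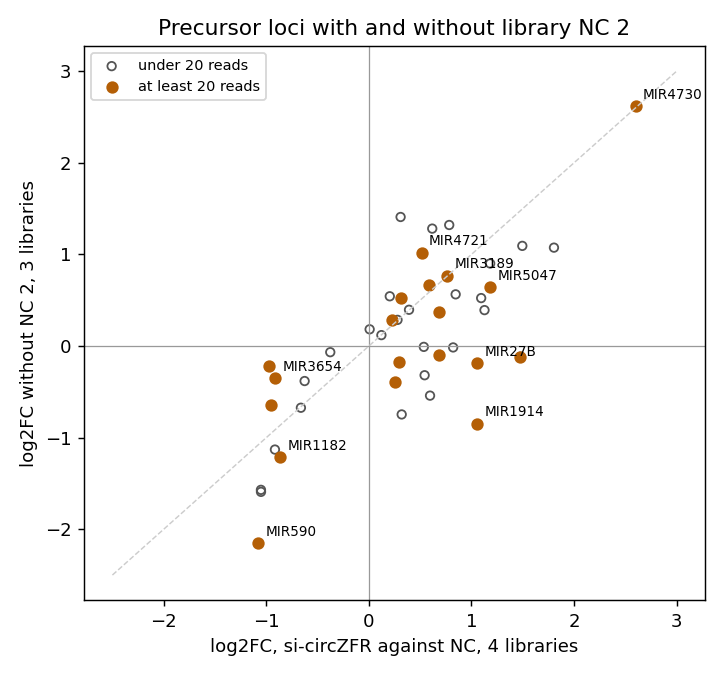
Fitted log2FC of si-circZFR against NC for each precursor locus with all 4 libraries (x axis) and with NC 2 left out (y axis), for the 45 loci tested in both. Filled points have at least 20 reads. MIR4730 lies on the dashed line of equal values at 2.60 and 2.62, and MIR27B and MIR1914 cross 0.

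Counting intervals separated the replicates of the NC group nearly as often as they separated the groups. Among the 28 loci with at least 10 reads, the exact 95% interval of the read ratio of si-circZFR to NC left out 1 for 9 loci. The same interval left out 1 for 8 loci between NC 2 and NC 1 (5 lower and 3 higher in NC 2) and for 4 loci between the si-circZFR replicates.

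The rows that the files type as miRNA, with names of the same kind, showed the same dependence. Of 787 such rows 58 met the detection rule, and 14 of them were at 0 in NC 2 against 1 in NC 1 and 4 and 3 after silencing. They took 30.3, 12.4, 32.1 and 45.2 reads per 1000000. Their median log2FC was 0.67 over 55 tested rows and 0.07 without NC 2. Limma called none of them and limma-voom called 0. By limma, 13 of the 55 had an unadjusted p under 0.05, a share near the 21.7% of all genes tested.

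The genes that make and use microRNAs gave no call by limma. Of 26 listed, 24 were tested, and limma-voom called 0. The unadjusted p by limma was under 0.05 for 1 higher and 3 lower of the 24 genes. That is no more than the 21.7% of all genes tested, so by count these genes did not stand out. DROSHA, the nuclease that cuts the hairpins free, stood at 10.8 and 7.87 scaled RPKM in the NC libraries and at 16.8 and 14.1 after silencing (log2FC of 0.68 ± 0.20 SE, FDR of 0.154). HNRNPA1, which binds the primary transcript of miR-18a, stood at 38.8 and 37.0 against 25.4 and 27.0 (log2FC of -0.52 ± 0.15 SE, FDR of 0.15). TARBP2, a partner of DICER1, had a log2FC of -0.42 (FDR of 0.195), and LIN28B, an inhibitor of let-7 maturation, had 69 and 74 reads in the NC libraries and 15 and 41 in the others (log2FC of -0.58, FDR of 0.221). DGCR8, XPO5 and DICER1 had log2FC values of 0.00, -0.29 and 0.15.

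The 7-base sites that pair with the seeds were searched for in the circle itself, the 693 bases of 5 joined ZFR exons in their sense direction. Of 62 distinct mature microRNAs of the loci, 1 had a match (miR-1287-3p, site GGCTAGA), 1.61%, beside 116 of 2370 human mature microRNAs in the table (4.89%). A match is only a run of letters. MIR1287 had 4, 0, 2 and 3 reads.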

How the data were processed

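RNA-seq was analyzed for 4 libraries, 2 of NC and 2 of si-circZFR, grouped by the sample labels. The authors aligned Ion Proton reads to the human genome (hg38 in the article, GRCh37 per the labels) and deposited 1 RPKM value per gene and library. The files hold no coordinates, and the aligner and annotation are not given in the sources used here. Since RPKM values are not counts, the count test first planned was replaced by limma on log2(scaled RPKM + 1). Library totals were inferred as the value that most hairpins of known length gave in common. Whole reads were recovered as the numbers that a common gene length turns into whole values in every library (tolerance 0.001), for 24282 of 24289 genes above 0. For loci of known hairpin length, all 146 values above 0 came out whole at that length (tolerance 0.02), a check that partly reuses the values behind the totals. Values were scaled by unweighted trimmed means (30% of ratios and 5% of levels), with factors of 0.904 to 1.11, and the test, with a trended prior variance, took genes that reached 1 RPKM in 2 or more libraries. Fold changes on this scale understate those of low genes. FDR is the Benjamini-Hochberg adjusted p by limma, and a gene passed at FDR below 0.05 and absolute log2FC above 1. Intervals of read ratios are exact binomial (95%). Hairpin and mature sequences came from RefSeq (GRCh38.p14), hosts from GENCODE 44, and copies from blastn 2.17.0 at 90% identity.

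Loci named are those called, the 15 with most reads, those of at least 20 reads with the groups apart, known microRNAs on a list, and their hosts. The rest are named only to account for them or after their values were seen. Results for some genes under these rules are not reported here. The loci, the lists and the tests were chosen with earlier results of these data known. Alternatives covered scaling, filter, pseudocount, replicate block, limma-voom, threshold, detection rule and each library left out. The software was limma 3.58.1 in R 4.3.3, and scipy 1.17.1, pandas 2.3.3, matplotlib 3.10.9 and numpy 2.4.6 in Python 3.11.15.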

Additional observations from a re-analysis of the deposited data

How the results depend on the processing

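The limits of these results are the few reads per locus, 2 libraries a group and library NC 2. The cause of the changes below was not tested, except where an alternative left fewer genes or libraries. Of all genes, 8 were called, and 5 with a pseudocount of 0.5, 5 with at least 10 reads, 36 with at least 20 reads, 0 without a filter on low values, 390 by limma-voom, and 0 to 937 when 1 library was left out (937 without NC 1). Of the precursor loci, 1 was called, and 0 without a filter, 0 by limma-voom and 0 to 11 with 1 library left out, the 11 without NC 1, when NC 2 alone stands for the controls and is assumed to vary like the other group. The median log2FC of the loci was 0.36, from -0.01 (without NC 2) to 0.66 (without si-circZFR 1) when 1 library was left out. With the values as deposited, scaled by library size only, the median was 0.15 over all genes and 0.49 over the loci. A rule of all 4 libraries gave 27 loci and a rule of at least 2 gave 77. With 1 library left out, the si-circZFR libraries lay above the NC libraries for 17 to 25 loci in place of 12 and below for 8 to 13 in place of 3. Groups of fewer libraries are apart more often, and over all genes tested the shares were 36.2% to 42.9% above and 35.9% to 42.5% below in place of 28.1% each.

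Replicate numbers were shared between the groups, and the deviations of same-numbered libraries correlated at only 0.069 across genes. Whether the numbers mark pairs or batches is not stated, and this value does not settle it. The replicate block gave 63 calls over all genes and left MIR4730 as the single locus called. The call for MIR4730 was also lost by limma-voom (2.78) and without NC 2, si-circZFR 1 or si-circZFR 2, with log2FC values of 2.48 to 2.73 over the libraries left out. With 1 library left out, the log2FC ranged from -0.32 to 0.94 for MIR103A2, from -0.85 to 2.95 for MIR1914, from -0.016 to 1.66 for MIR196A1, from -0.18 to 2.29 for MIR27B, from -0.10 to 1.46 for MIR3176, from -0.021 to 1.28 for MIR3687 and from -0.84 to 0.75 for MIR663A. Besides these, MIR421, MIR5587, MIR1287, MIR4312, MIR4512, MIR5010 and MIR548N changed sign without NC 2, and other alternatives were not followed for them one by one. The other loci of the naming rule did not change sign in the alternatives in which they were tested. No locus lies in another small RNA gene, so leaving such loci out changed nothing.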
